A study of Homo sapiens with 6 samples.

Results

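The genes described here encode the integrins, the main cell receptors for extracellular matrix, and the laminins, the trimeric proteins that build basement membrane. They were taken from the deposited count table by symbol and gene type: all protein-coding integrin alpha chains (18 genes), integrin beta chains (8 genes) and laminin alpha, beta and gamma chains (12 genes), 38 of the 30493 genes listed. They were measured by poly(A) RNA-seq in A549, an established human lung adenocarcinoma cell line, in 3 control libraries and 3 libraries in which STAU1 was knocked down. STAU1 encodes Staufen, a protein that binds double-stranded RNA. The labels give the controls as carrying a control plasmid and prefix the knockdown libraries with si. The sources used here do not give the reagent, its dose or the time of harvest, nor whether the libraries came from separate cultures, so each p-value reflects library-to-library spread that may be technical. The comparison asked how transcripts differ when STAU1 is depleted.

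As background, an integrin is a pair of 1 alpha and 1 beta chain that spans the membrane, binds matrix outside the cell and, through talin and kindlin, couples to actin inside it. The alpha chain largely sets the ligand: some chains bind laminin, some collagen, some the RGD sequence of fibronectin, vitronectin and latent TGF-beta, and a group found mainly on leukocytes binds cell-surface partners. A laminin joins 1 alpha, 1 beta and 1 gamma chain, and lung epithelium rests on a basement membrane that contains them. The alpha chain carries most of the sites that integrins recognise.

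The libraries held between 30354219 and 35431441 counts, and the 38 genes together took between 0.233% and 0.239% of them. STAU1 itself stood at 120, 124.5 and 117 CPM (counts scaled to a common library size, with TMM factors that correct for composition) in the controls, in the order of replicates 1 to 3 used throughout, and at 16.02, 15.7 and 14.6 CPM in the knockdown libraries, so the libraries matched their labels. The keratin genes KRT8, KRT18 and KRT7, which mark simple epithelium, were abundant in every library, with control means of 4371, 4128 and 1552 CPM and knockdown means of 3328, 3028 and 1027 CPM. The epithelial cadherin gene CDH1 averaged 86.2 CPM in controls and 122 CPM in knockdown libraries. The lung lineage gene NKX2-1 had between 2 and 9 counts in a library and was not tested. Of the 7 epithelial markers read, 6 were tested, with the test described below. Of these 2, CDH1 among them, were called higher, 3, the keratin genes above, lower, and 1 was not called. Of all tested genes 22.2% were called higher and 21.9% lower. In bulk RNA, fewer cells of a type and less RNA per cell cannot be told apart.

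Integrin genes moved in both directions and laminin genes mostly upward. Of the 38 genes 33 had enough counts to be tested with edgeR's quasi-likelihood test, and at a Benjamini-Hochberg adjusted p under 0.05 over all 17089 genes tested 10 were higher and 11 lower in knockdown libraries. That is 63.6% of the tested members, beside 44.1% of all tested genes, of which 22.2% were higher and 21.9% lower, and 50.6% of tested protein-coding genes. Among the integrins 4 rose and 9 fell of 23 tested, with a median log2 fold change of -0.09, and among the laminins 6 rose and 2 fell of 10 tested, with a median of 0.19. The median over all tested genes was -0.00019. CPM ranges of the 2 groups did not overlap for 22 of the 33 members, beside 51.4% of all tested genes. The 5 rises of at least 0.7 on the log2 scale were all in genes of low to modest level, namely ITGA11, LAMA4, ITGB6, ITGA1 and ITGB8. ITGA11 and LAMA4 were the only members past 2-fold, beside 1.11% of tested genes that were at least 2-fold higher, and no member was 2-fold lower, beside 0.533% of tested genes.

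The count of lower genes depended on the scaling. With total-count scaling, which raises the median log2 fold change of all genes to 0.08, 11 members were higher and 4 lower, so that 73.3% of the member calls were higher, against 47.6% with TMM. On either deposited FPKM scale (log2(FPKM + 1) or log2(FPKM + 0.1)), 11 were higher and 2 lower, or 84.6% higher. Over all alternatives that tested them, 9 of the 10 higher genes stayed called higher, all but LAMB1, whereas ITGA3 and ITGB1 were the only lower genes that stayed called lower. The split over all genes moved in the same way, from 50.3% of calls higher with TMM to 69.5% with total-count scaling and 77.3% and 77.2% on the FPKM scales.

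**Figure D1:**
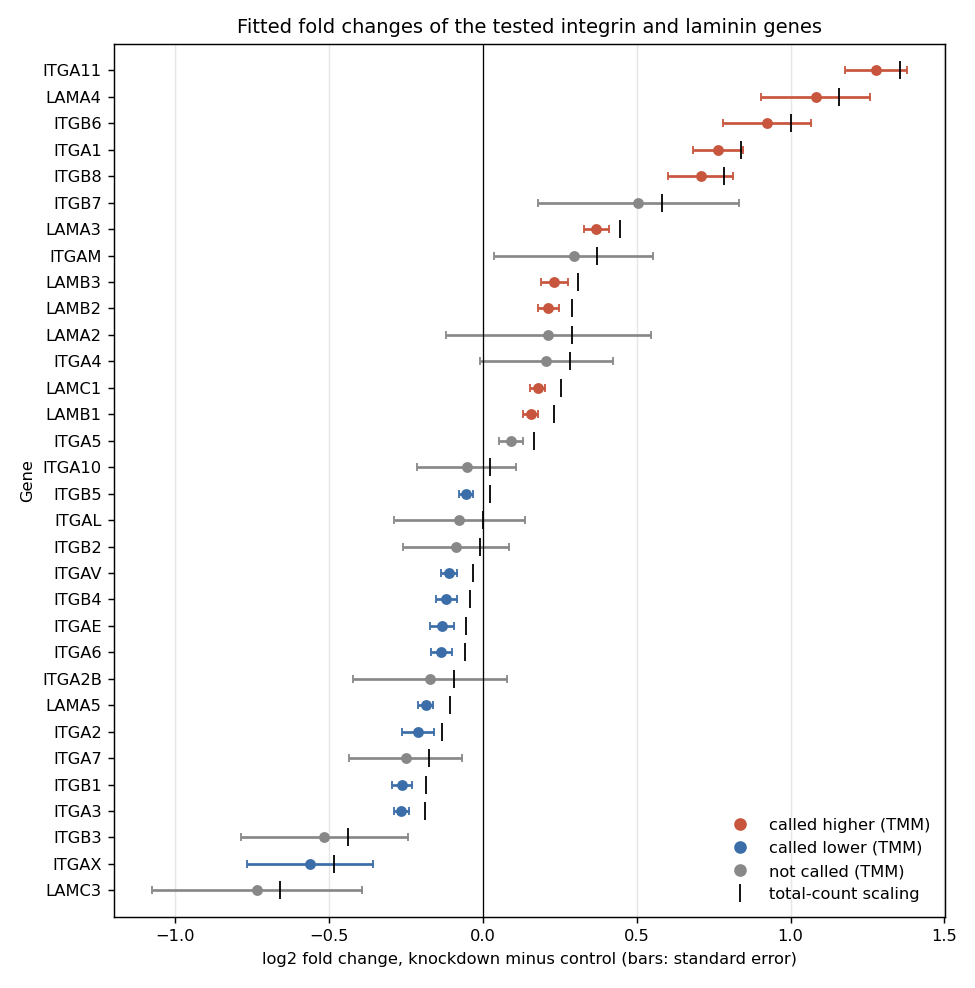
Log2 fold change (knockdown minus control, x axis) of 32 of the 33 tested integrin and laminin genes, with standard errors as bars, coloured by their call with TMM scaling, and the value with total-count scaling as a black tick. ITGA11 and LAMA4 lie past 1, and the ticks of ITGB5 lie on the other side of 0 from its point.

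The members were also read by level. Of the 14 members whose mean log2 CPM was 5 or more, 5 rose and 8 fell, beside 67.5% of genes called at that level. The median absolute log2 fold change of these members was 0.17, beside 0.14 for all tested genes at that level. Of the 19 tested members under that level, 5 rose and 3 fell, beside 33.9% of genes called. Their median absolute log2 fold change was 0.30, beside 0.20 for all tested genes under that level, so it was larger at low level in both. Across the 33 members Pearson's r between signed log2 fold change and mean log2 CPM was -0.10 and Spearman's rho -0.09, and across all 17089 tested genes they were -0.03 and -0.04. With log2 of the gene length implied by counts and FPKM, r was 0.26 over 31 members and 0.16 over 16693 tested genes. Over the alternatives the laminin median ran from 0.15, with an offset for that length and a replicate block, to 0.27 with log2(FPKM + 0.1). The integrin median ran from -0.14, with the length offset alone, to 0.03 with log2(FPKM + 0.1). These points come from the same 6 libraries, and the values are descriptions.

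**Figure D2:**
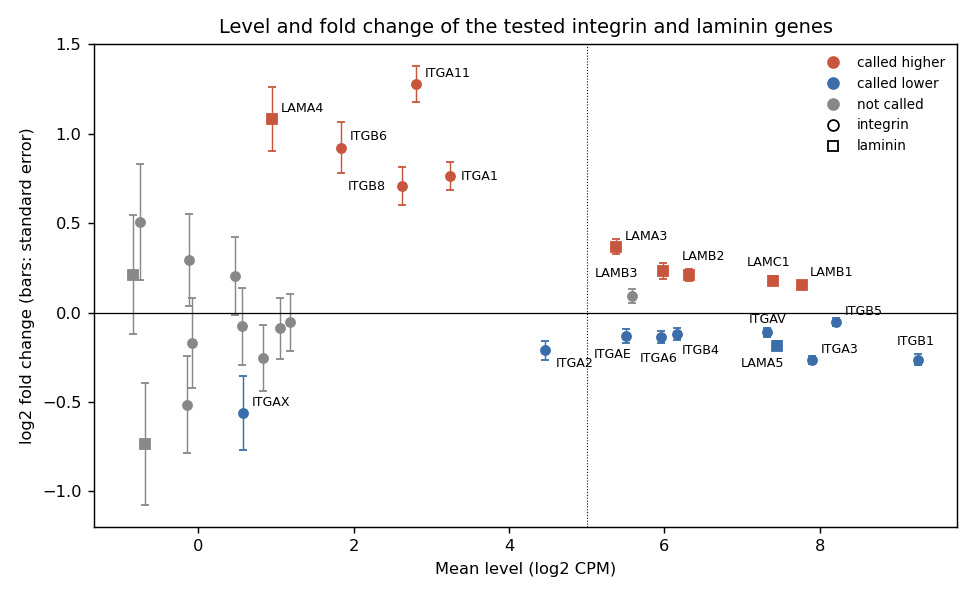
Mean level (log2 CPM, x axis) and log2 fold change (y axis, bars are standard errors) of 32 of the 33 tested integrin and laminin genes, with circles for integrins, squares for laminins and a dotted line at a log2 CPM of 5. The rises of ITGA11, LAMA4, ITGB6, ITGA1 and ITGB8 all lie left of the line, and the called genes to its right lie within 0.37 of 0.

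The sequence just before the RefSeq start (build GRCh38.p14) is shown for 4 genes: ITGA11, which rose most, ITGB5, an abundant integrin that barely moved, and LAMA5 and LAMC1, abundant laminin chains that moved in opposite directions. Each line holds 250 bases that end at the base before the start, read 5′ to 3′ on the gene's strand, and capitals mark matches to TGANTCA (the AP-1 motif) or GGGCGG (the GC box) on either strand. The windows are chr15:68432164-68432413 for ITGA11 (minus strand), chr3:124901419-124901668 for ITGB5 (minus), chr20:62367313-62367562 for LAMA5 (minus) and chr1:183023170-183023419 for LAMC1 (plus). None of the 4 holds a base of a GENCODE 29 exon, which is so for 9 of the 26 windows found. The starts that A549 cells use were not measured.
ITGA11: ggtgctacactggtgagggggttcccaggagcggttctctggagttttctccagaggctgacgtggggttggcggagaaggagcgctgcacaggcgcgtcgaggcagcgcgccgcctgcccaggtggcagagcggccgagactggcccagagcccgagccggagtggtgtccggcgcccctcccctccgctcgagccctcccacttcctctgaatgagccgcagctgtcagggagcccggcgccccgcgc
ITGB5: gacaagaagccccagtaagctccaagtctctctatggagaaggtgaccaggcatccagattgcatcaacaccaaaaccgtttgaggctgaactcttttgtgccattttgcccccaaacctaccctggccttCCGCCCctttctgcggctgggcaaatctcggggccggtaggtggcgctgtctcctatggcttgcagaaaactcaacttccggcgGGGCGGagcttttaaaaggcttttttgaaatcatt
LAMA5: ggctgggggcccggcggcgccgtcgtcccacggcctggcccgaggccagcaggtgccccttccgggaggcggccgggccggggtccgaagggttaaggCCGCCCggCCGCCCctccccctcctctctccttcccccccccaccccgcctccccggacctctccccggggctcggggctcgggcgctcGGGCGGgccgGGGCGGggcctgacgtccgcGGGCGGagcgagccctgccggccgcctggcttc
LAMC1: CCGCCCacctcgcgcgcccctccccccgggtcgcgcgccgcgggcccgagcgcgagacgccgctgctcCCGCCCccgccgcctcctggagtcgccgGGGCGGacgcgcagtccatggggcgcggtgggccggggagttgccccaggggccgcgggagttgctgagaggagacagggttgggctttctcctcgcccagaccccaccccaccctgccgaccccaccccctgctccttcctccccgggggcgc
The G and C content was 71.2% in ITGA11, 52.8% in ITGB5, 82.8% in LAMA5 and 79.6% in LAMC1. ITGA11 held no GC box, ITGB5 2, LAMA5 5 and LAMC1 3.

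RefSeq windows of the same length were matched by symbol for 26 of the 38 genes. They were searched on both strands for 5 motifs, and in these 26 windows no match overlapped a match to another motif. LAMA3 was the only one of the 26 with TGANTCA, which it holds 2 times, and 6.6% of all 35116 windows hold it. GGGCGG was in 13 of 26, among them 6 of the 10 higher genes (ITGB8, LAMA3, LAMB1, LAMB2, LAMB3 and LAMC1) and 4 of the 7 lower genes with a window (ITGA2, ITGB1, ITGB5 and LAMA5), beside 42.6% of all windows. CATTCC, the TEAD motif, was in 4 of 26, beside 11.9% of all. TATAAA and the E-box CACGTG were each in 1 of 26, ITGA6 in both cases, beside 10.7% and 6.3% of all. ITGA11, LAMA4 and ITGB6, the genes with the largest rises, held none of these 5 letter runs in this window. A match is a description of letters and not a binding site, and a window with no match says nothing of a factor.

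Of the alpha chains that bind laminin, ITGA3 and ITGA6 fell. ITGA3 (ENSG00000005884.18, chromosome 17, 50055968 to 50090481, plus strand, GRCh38 coordinates of GENCODE 29) pairs with the beta-1 chain and is the major laminin receptor of many epithelia. It had 261, 260.2 and 261 CPM in controls and 215, 210.3 and 224 CPM in knockdown libraries. The groups lay far apart compared with their spread, and the log2 fold change was -0.27 (SE 0.02, adjusted p = 2.4e-11 by edgeR quasi-likelihood). ITGA6, which joins beta-4 in hemidesmosomes, went from 65.0 ± 1.72 to 59.2 ± 1.06 CPM (SD, n = 3 each), a log2 fold change of -0.14. Its call was lost with total-count scaling (-0.06) and on the FPKM scales (-0.02 and -0.03). ITGA7, the laminin receptor known from muscle, stood at 1.88 ± 0.268 and 1.59 ± 0.177 CPM with overlapping groups and was not called.

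The collagen-binding alpha chains split, with ITGA11 and ITGA1 higher and ITGA2 lower. ITGA11 (ENSG00000137809.17, chromosome 15, 68296533 to 68432162, minus strand) encodes a receptor for fibrillar collagen known from fibroblasts. Controls gave 120, 113 and 139 counts of it and knockdown libraries 296, 282 and 382, or 3.87, 3.69 and 4.36 CPM against 9.47, 8.83 and 10.6 CPM. Every knockdown library lay above every control, and the fold was 2.43 (log2 fold change 1.28, SE 0.10, adjusted p = 9.2e-13 by edgeR quasi-likelihood). ITGA1, a receptor for basement membrane collagen, had 7.48, 6.70 and 6.56 CPM in controls and 11.3, 11.6 and 12.2 CPM in knockdown libraries. The groups were again apart, by a log2 fold change of 0.76 (SE 0.08). ITGA1 shares 2.6% of its exon bases with PELO, a ribosome rescue gene on the same strand that is more abundant and went from 37.2 to 33.7 CPM, so reads at these bases cannot be assigned. ITGA2, the epithelial collagen receptor, was the most abundant of these and went from 23.7 ± 0.725 to 20.5 ± 0.867 CPM (-0.21, SE 0.05). On the FPKM scales its call was lost, with adjusted p of 0.221 and 0.222 from limma. ITGA10, known from cartilage, had 2.25 ± 0.184 and 2.17 ± 0.165 CPM and was not called.

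Among the alpha chains that bind RGD sequences the changes were small. ITGAV, which pairs with several beta chains to bind vitronectin and latent TGF-beta, had 164, 163 and 170.5 CPM in controls and 153.5, 157 and 151 CPM in knockdown libraries. The groups did not overlap, and the log2 fold change was -0.11 (SE 0.03), but -0.03 with total-count scaling and -0.00062 and -0.000637 on the FPKM scales, where the call was lost. ITGA5, the fibronectin receptor chain, had 46.3, 44.2 and 48.8 CPM in controls and 49.0, 49.1 and 50.3 CPM in knockdown libraries. It was not called (0.09, SE 0.04, adjusted p = 0.0596 by edgeR quasi-likelihood), though it was called higher without control replicate 3 (0.13, adjusted p = 0.0165), with the CPM filter (0.09, adjusted p = 0.0415), with total-count scaling (0.17) and on the FPKM scales (0.17 and 0.20). ITGA2B, the platelet chain, had 0.941 ± 0.111 and 0.838 ± 0.139 CPM and was not called. ITGA8 had 1 count over the 3 controls and 0 over the knockdown libraries, and was not tested.

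The integrins known mainly from leukocytes were scarce, apart from ITGAE. ITGAE, which binds E-cadherin when paired with beta-7, had 47.7 ± 1.53 CPM in controls and 43.5 ± 1.39 in knockdown libraries (-0.13, SE 0.04), a call lost with total-count scaling (-0.06) and on the FPKM scales (-0.02 on both). It shares 6.4% of its exon bases with HASPIN, a mitotic kinase gene on the other strand that went from 7.004 to 4.56 CPM, and no source used here gives the strand setting of the counting. ITGAX, the complement receptor chain, had 53, 58 and 49 counts in controls and 31, 47 and 37 in knockdown libraries. Its ranges did not overlap in CPM, and it was called lower (-0.56, SE 0.21, adjusted p = 0.0255 by edgeR quasi-likelihood). That call was lost without control replicate 1 or 2 (adjusted p = 0.0598 and 0.108) and without knockdown replicate 1 or 3 (0.0992 and 0.0905). It was also lost with total-count scaling (0.0532), DESeq2 (0.0996) and the FPKM scales (0.0939 and 0.0956 from limma). ITGAL, ITGAM, ITGA4 and the beta chains ITGB2 and ITGB7 were between 0.438 and 2.08 CPM in controls, their groups overlapped and none was called. ITGB7 shares 42.1% of its exon bases with ZNF740 on the other strand, which is far more abundant at 36.3 and 36.6 CPM. ITGAD had 1 count in all over the controls and ITGA9, a chain for tenascin and other matrix proteins, 3, with 0 and 1 over the knockdown libraries.

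The beta chains showed the abundant ITGB1 lower and the scarce ITGB6 and ITGB8 higher. ITGB1 (ENSG00000150093.20, chromosome 10, 32900319 to 33005792, minus strand), the common partner of most matrix-binding alpha chains, had 675, 681 and 659 CPM in controls and 542, 594 and 543 CPM in knockdown libraries. All knockdown libraries lay below all controls (-0.26, SE 0.03, adjusted p = 2.7e-05 by edgeR quasi-likelihood). The lowest and highest fitted values over the alternatives were -0.35 and -0.15. ITGB6 (ENSG00000115221.12, chromosome 2, 160099666 to 160200313, minus strand), which with alpha-V activates latent TGF-beta in epithelium, had 68, 75 and 81 counts in controls and 121, 136 and 195 in knockdown libraries. In CPM these were 2.19, 2.45 and 2.54 against 3.87, 4.26 and 5.40, with knockdown replicate 3 the highest and no overlap (0.92, SE 0.14, adjusted p = 1.7e-06 by edgeR quasi-likelihood). A processed transcript, AC092153.1, shares 20.6% of the exon bases of ITGB6 on the same strand and went from 0.266 to 0.413 CPM. ITGB8, the other alpha-V partner known to activate latent TGF-beta, had 4.13, 4.25 and 5.40 CPM in controls and 7.355, 7.11 and 8.025 CPM in knockdown libraries (0.71, SE 0.11). Control replicate 3 was the highest control and still lay below every knockdown library.

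The other beta chains moved little. ITGB5, the abundant alpha-V partner for vitronectin, had 304, 300.5 and 297 CPM in controls and 286, 285 and 297 CPM in knockdown libraries. The highest knockdown library lay just under the lowest control, and its call (-0.05, SE 0.02, adjusted p = 0.0475 by edgeR quasi-likelihood) was lost in 11 of 19 alternatives, among them each fit without control replicate 1 or 2 or knockdown replicate 1 or 2 (adjusted p between 0.085 and 0.22). It was 0.02 with total-count scaling and 0.05 on both FPKM scales. ITGB4, the hemidesmosome chain, went from 74.2 ± 2.89 to 68.3 ± 2.02 CPM (-0.12, SE 0.03), a call lost without control replicate 3 (-0.09, adjusted p = 0.0592), with total-count scaling (-0.04) and on the FPKM scales (-0.01 on both). ITGB3, the platelet and vitronectin receptor chain, had 28, 27 and 38 counts in controls and 30, 16 and 23 in knockdown libraries. It was not called, except without knockdown replicate 1 (-0.79, adjusted p = 0.0382), and shares 51.6% of its exon bases with the annotated gene AC068234.1.

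**Figure D3:**
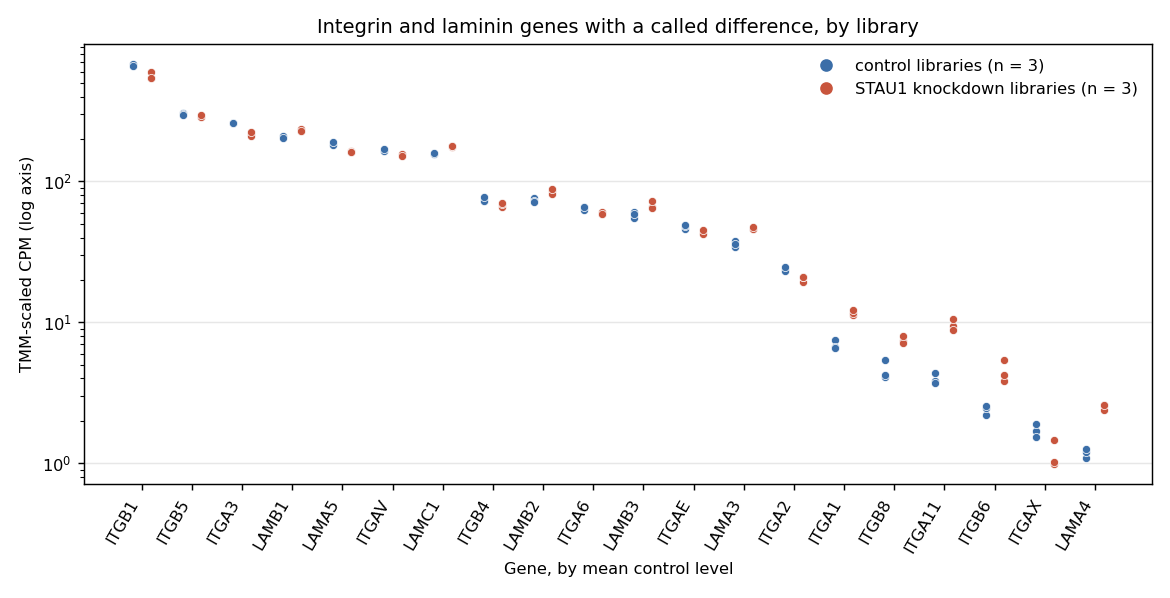
TMM-scaled CPM (log axis) in each library of 20 of the 21 integrin and laminin genes called higher or lower, ordered by control level, with control libraries in blue and knockdown libraries in red. ITGA11, ITGB6, ITGA1, ITGB8 and LAMA4 separate widely at the low end, while the abundant genes differ by small steps.

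The laminin alpha chains moved in both directions, with LAMA3 and LAMA4 higher and the most abundant, LAMA5, lower. LAMA3, the chain of the epithelial anchoring laminin (ENSG00000053747.17, chromosome 18, 23689443 to 23956222, plus strand), had 34.4, 37.5 and 36.2 CPM in controls and 45.8, 46.0 and 47.6 CPM in knockdown libraries. The groups were well apart (0.37, SE 0.04, adjusted p = 3.0e-09 by edgeR quasi-likelihood). LAMA4 (ENSG00000112769.20, chromosome 6, 112108760 to 112254939, minus strand), a chain known from vessel walls and mesenchyme, had 34, 37 and 40 counts in controls and 81, 76 and 93 in knockdown libraries, a fold of 2.12 (1.08, SE 0.18). It was scarce throughout, at 1.19 ± 0.0823 and 2.51 ± 0.117 CPM. LAMA5, the widespread epithelial chain, had 184, 182 and 190 CPM in controls and 164, 162 and 163 CPM in knockdown libraries (-0.19, SE 0.02). Its call was lost on the FPKM scales, at -0.07 and -0.08. LAMA2, the muscle chain, had between 14 and 22 counts in a library and was not called, and LAMA1 had 4 counts over the controls and 2 over the knockdown libraries.

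All 3 tested laminin beta chains were higher. LAMB1, known from embryonic and adult basement membranes, had 207, 209 and 205 CPM in controls and 227, 236 and 228 CPM in knockdown libraries (0.15, SE 0.02). With an offset that takes out the trend with gene length LAMB1 was no longer called (0.05, adjusted p = 0.0608 by edgeR quasi-likelihood, and 0.0742 with the replicate block as well). The length used there is implied by counts and FPKM. For LAMB1 it was 2.69 times the GENCODE 29 exon length, beside a median of 1.18 over 16497 genes. Whether the lost call rests on that length was not tested. LAMB2, known from kidney and neuromuscular basement membranes, went from 73.5 ± 2.23 to 85.1 ± 3.69 CPM (0.21, SE 0.03). LAMB3, the partner of LAMA3, had 60.3, 54.9 and 58.7 CPM in controls and 65.85, 64.8 and 73.2 CPM in knockdown libraries (0.23, SE 0.04). LAMB4 had 15 counts over the controls and 16 over the knockdown libraries and was not tested.

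LAMC1, the gamma chain of most laminins, had 157, 155 and 160 CPM in controls and 175.5, 179.5 and 179 CPM in knockdown libraries (0.18, SE 0.02). Its groups did not overlap, and it was called higher in every alternative run. LAMC3, a scarce chain, had 26, 25 and 15 counts in controls and 12, 8 and 22 in knockdown libraries and was not called (-0.73, SE 0.34, adjusted p = 0.0804 by edgeR quasi-likelihood), though it was without control replicate 3 (-0.96, adjusted p = 0.0359) or without knockdown replicate 3 (-1.15, adjusted p = 0.0151).

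Levels of different genes were compared per length, with the deposited FPKM. Among alpha chains ITGA3 was the highest, at 35.3% ± 0.534 of the summed alpha-chain FPKM in controls (SD, n = 3) and 32.3% ± 0.764 in knockdown libraries. ITGAV (26.9% ± 0.207 and 27.4% ± 0.793), ITGA6 (12.9% ± 0.235 and 13.0% ± 0.311), ITGAE (9.60% ± 0.277 and 9.62% ± 0.227) and ITGA5 (8.36% ± 0.279 and 9.79% ± 0.0464) followed. ITGAE and ITGA5 were close to each other in knockdown libraries, where the range of ITGAE was 9.41% to 9.86% and that of ITGA5 9.76% to 9.84%. The share of ITGA11 went from 0.488% ± 0.0325 to 1.29% ± 0.110 and that of ITGA1 from 0.494% ± 0.0403 to 0.923% ± 0.0228, so that both remained minor chains.

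Among beta chains ITGB1 and ITGB5 held nearly equal FPKM shares in controls, 44.1% ± 0.472 and 44.2% ± 0.328, and 40.6% ± 1.58 and 46.9% ± 1.29 in knockdown libraries. This order rests on the length that the authors used. The ratio of the length implied by the deposited counts and FPKM to the GENCODE 29 exon length was 2.86 for ITGB1 and 2.69 for LAMB1, beside a median of 1.18 over 16497 genes. With CPM per kilobase of the GENCODE 29 transcript with the longest coding sequence, ITGB1 held 68.3% ± 0.381 and 65.0% ± 1.496 and ITGB5 26.1% ± 0.221 and 28.7% ± 1.24. ITGB6 and ITGB8 together with the other scarce chains made up little on either scale. The FPKM share of ITGB6 went from 0.395% ± 0.0309 to 0.820% ± 0.138 and that of ITGB8 from 0.289% ± 0.0452 to 0.523% ± 0.0364.

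Among laminin alpha chains LAMA5 held 83.1% ± 0.761 of the summed FPKM in controls and 76.7% ± 0.322 in knockdown libraries, and LAMA3 took 15.9% ± 0.679 in controls and 21.6% ± 0.395 in knockdown libraries. The FPKM ratio of LAMA3 to LAMA5 within a library was 0.184, 0.203 and 0.188 in controls and 0.276, 0.280 and 0.288 in knockdown libraries. A ratio within a library does not depend on its scaling, and these ranges lay apart. The laminin beta chains LAMB3, LAMB1 and LAMB2 held between 29.98% and 38.5% each in every library, and their shares overlapped between groups. With the transcript length in place of the authors' length LAMB1 held 57.6% ± 1.01 in controls, so the order of these 3 depends on the length. These values are descriptions with no test, since 3 libraries against 3 cannot give an exact two-sided permutation p under 0.1.

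**Figure D4:**
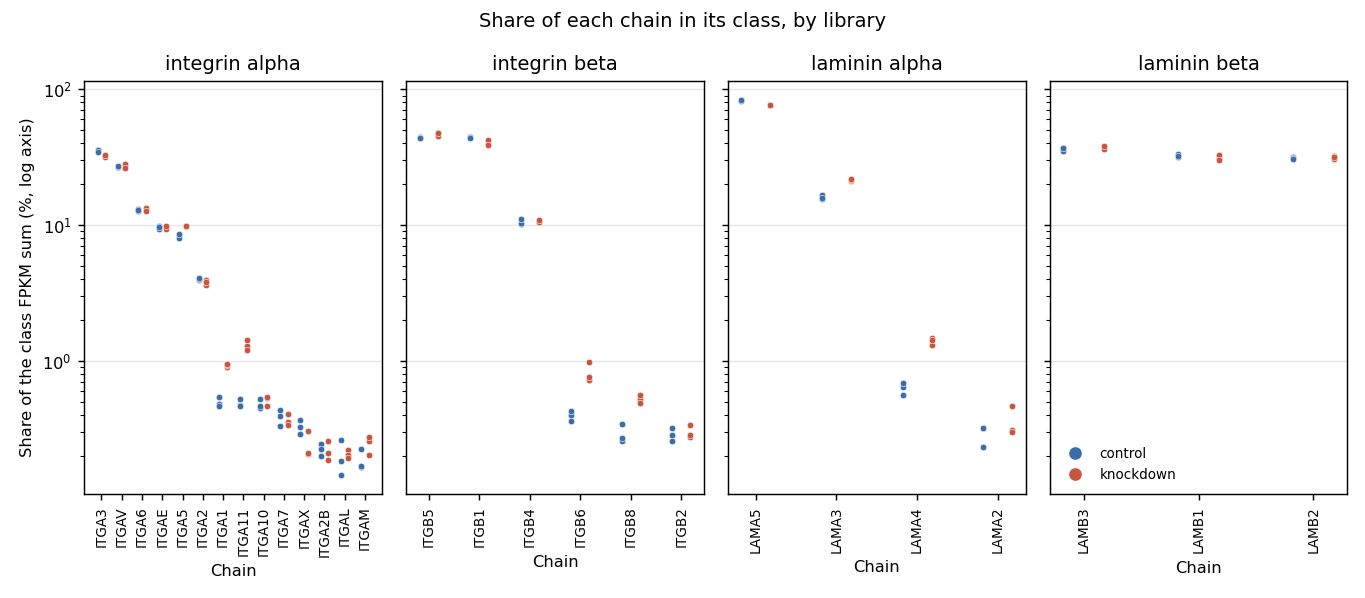
Share of each integrin alpha and beta and laminin alpha and beta chain in the summed FPKM of its class (percent, log axis) in each library, for chains with a mean share of at least 0.2% in either group, with control libraries in blue and knockdown libraries in red. LAMA3 and LAMA4 have higher shares and LAMA5 lower ones in knockdown libraries, and the 3 laminin beta chains lie together at about the same height.

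The genes around integrins and laminins were read from lists of known function. The counts here and in the next paragraph stand beside 22.2% of all tested genes called higher and 21.9% lower. Of tested protein-coding genes 50.6% were called. Of 16 basement membrane partners of laminins 15 were tested, 11 rose and 1 fell, with a median log2 fold change of 0.19. Over the alternatives this median ran from 0.095, with the length offset and the replicate block, to 0.30 with log2(FPKM + 0.1). NID2, a nidogen that links laminin to collagen IV, went from 6.56 ± 0.142 to 10.1 ± 0.659 CPM (0.62, SE 0.08), the integrin ligand NPNT from 7.68 to 10.97 CPM (0.51, SE 0.08) and the collagen IV chain COL4A1 from 12.6 to 18.0 CPM (0.51, SE 0.06). NTN4, a netrin that binds laminin, rose by 0.47 (SE 0.04) on the log2 scale, and AGRN, the proteoglycan agrin, by 0.17 (SE 0.03). The 1 lower gene was FRAS1, at -0.19 (SE 0.05), a call lost with total-count scaling and on the FPKM scales. Of 24 matrix and cell-surface ligands of integrins 20 were tested, 12 rose and 1 fell, with a median of 0.40. Among them were the collagen gene COL1A1 (4.26 to 12.0 CPM), the latent TGF-beta binding protein gene LTBP1, from 22.3 ± 1.78 to 45.3 ± 1.23 CPM (1.02, SE 0.05), the fibrillin gene FBN1, from 5.79 to 11.2 CPM (0.96, SE 0.09), and the fibronectin gene FN1, from 863 to 1068 CPM (0.31, SE 0.02). The lower one was SPP1, the osteopontin gene, from 364 ± 8.06 to 219 ± 6.74 CPM (-0.73, SE 0.02). COL1A2 had no entry under that symbol among the genes listed, so it could not be tested.

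Of 8 hemidesmosome and non-integrin laminin receptor genes 4 rose and 1 fell, with a median of 0.15. The syndecan genes SDC4 and SDC1 went from 30.9 to 53.2 CPM (0.78, SE 0.04) and from 159 to 192 CPM (0.27, SE 0.03), the plakin gene DST from 87.8 to 116.5 CPM (0.41, SE 0.03) and the dystroglycan gene DAG1 from 125 to 145 CPM (0.22, SE 0.03). The tetraspanin gene CD151, a partner of laminin-binding integrins, had 334 ± 3.95 and 321 ± 7.66 CPM, and its call (-0.06, SE 0.02) was lost in 10 of 19 alternatives, with the sign changed to 0.02 with total-count scaling and 0.05 on both FPKM scales. The others included each fit without control replicate 1 or 3 or knockdown replicate 1 or 2, where the fitted values over all 6 such fits ran from -0.07 to -0.04. Of 31 integrin activators and adapters 30 were tested, 10 rose and 6 fell, with a median of 0.08. The part called was near the 50.6% of tested protein-coding genes. The tensin gene TNS1 went from 17.8 ± 0.671 to 29.3 ± 0.849 CPM (0.72, SE 0.05), and TGFB1I1, a paxillin relative, and RSU1, a gene of the ILK complex, rose by 0.25 (SE 0.06) and 0.24 (SE 0.03). The talin gene TLN1 rose by 0.20 (SE 0.03) and the integrin-linked kinase gene ILK by 0.16 (SE 0.03). With total-count scaling 16 rose and 3 fell, and on either FPKM scale 17 rose and 1 fell. Over all genes 69.5% of calls were higher with total-count scaling and 77.3% and 77.2% on the FPKM scales. Of 19 adhesion kinases and scaffolds 18 were tested, 10 rose and 2 fell, with a median of 0.13. The engulfment and Rac pathway genes ELMO1 and DOCK1 rose by 0.46 (SE 0.08) and 0.44 (SE 0.04), CSK, the kinase that inhibits SRC, by 0.37 (SE 0.04), and PTK2, the focal adhesion kinase gene, from 86.5 to 105 CPM (0.28, SE 0.03). SRC itself went from 218 ± 4.91 to 175 ± 1.53 CPM (-0.32, SE 0.02).

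**Figure D5:**
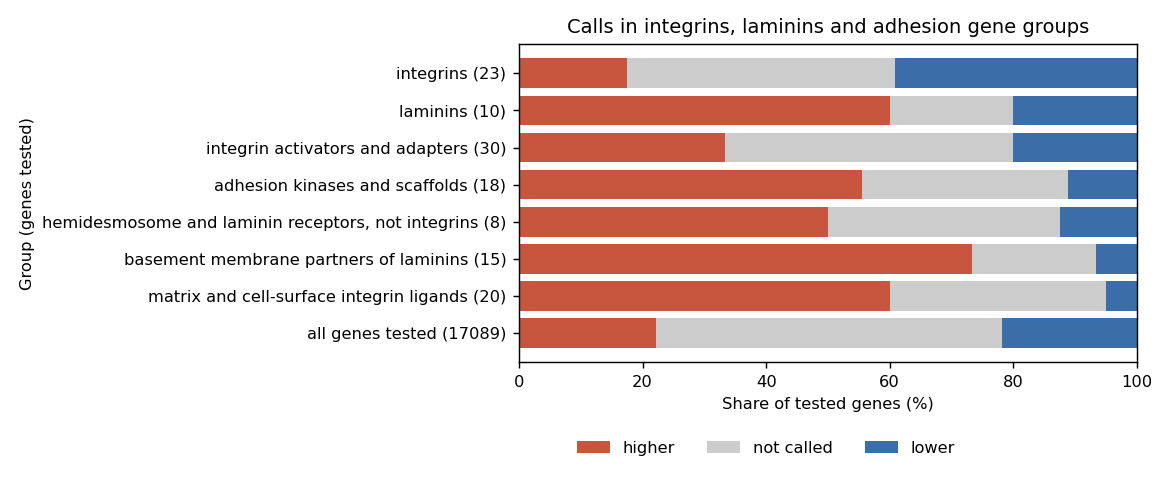
Share of tested genes (percent, x axis) called higher (red), not called (grey) and lower (blue) in knockdown libraries, for integrins, laminins, 5 lists of adhesion genes and all 17089 genes tested. The basement membrane list has the longest red bar, with 11 of 15, and the integrins the longest blue bar, with 9 of 23.

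Several of the genes above are also known from other cells, so markers of such cells were read beside them. Of 10 fibroblast and endothelial markers 4 were tested and 3 were higher, and the summed level of the list ran from 7.72 to 8.04 CPM in controls and from 11.9 to 13.7 CPM in knockdown libraries. Most of this was LUM (6.05 and 9.91 CPM). CDH5 had 0.802 and 1.64 CPM, while DCN, PDGFRB, COL6A3, KDR, VWF and TEK had at most 9 counts in any library, and PDGFRA, with between 3 and 19, was called higher though its groups overlapped and lost its call in 10 of 18 alternatives. These 6 markers were thus at or near 0 in both groups, while LUM and CDH5 rose beside ITGA11, ITGA1 and LAMA4. Of 8 leukocyte markers 3 were tested and 1, CD14 (12.7 and 15.9 CPM), was higher. The list's sum ran from 13.8 to 15.4 CPM in controls and from 16.9 to 19.2 CPM in knockdown libraries, with at most 1 count of CSF1R in a library. PTPRC, CD3E, TYROBP and GP9 were looked up but had no entry under these symbols among the genes listed, so they could not be tested. The sum of the 5 platelet and megakaryocyte markers ran from 1.05 to 1.32 CPM in controls and from 0.799 to 1.16 CPM in knockdown libraries, and neither of the 2 tested was called. All libraries were of A549, a cell line and not a tissue, so no other cell type was part of the design. The presence of other cells was not tested.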

How the data were processed

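Poly(A) RNA of 3 control and 3 STAU1 knockdown libraries of A549 cells was sequenced as directional paired-end 150 nt reads, per the labels' protocols. The authors deposited read counts per gene and, for 30128 genes, FPKM values rounded to 2 decimals. HISAT2, DESeq2 and GRCh38 are named, per the submitters' processing notes, with no role or version, and the sources used here do not give the counting tool, annotation or strand setting. Columns were assigned by sample title. Replicate pairs differed by more than sampling noise (chi-square per degree of freedom 1.78 to 2.88), so each library was counted on its own.

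Counts kept by filterByExpr (minimum count 10) were TMM-scaled and went into edgeR's quasi-likelihood test (R 4.3.3, edgeR 4.0.16; limma 3.58.1 for the FPKM fits), with Benjamini-Hochberg adjustment over all 17089 genes. A standard error is the absolute log2 fold change divided by the root of its F statistic. The script was tested on simulated counts. Alternatives were other scalings, filters and tests (DESeq2 1.42.0), log2(FPKM + 1) and log2(FPKM + 0.1) in limma, an offset for the gene length implied by counts and FPKM (loess span 0.3), the replicate block, and each library left out. Folds on the log2(FPKM + pseudocount) scale understate the change of low genes.

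All integrin and laminin genes of the table were analysed, and 1 of them and 1 marker gene are counted in the totals but not reported here by name. In each adhesion list, the text names up to 3 called genes of largest change whose groups did not overlap and whose mean log2 CPM was 3 or more, with up to 2 partners. FRAS1 and the overlapping genes HASPIN, PELO, ZNF740, AC092153.1 and AC068234.1 were named outside this rule, after their values were seen. The members and lists were chosen with earlier results of these data known. Promoters are RefSeq's (GRCh38.p14), and gene coordinates are those of GENCODE 29.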

Additional observations from a re-analysis of the deposited data

How the results depend on the processing

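Of 621 comparisons of a member's call with an alternative 567 gave the same call, 43 lost it, 8 gained one and 3 lost it with a change of sign. Those 3 were ITGB5, with values of 0.022 under total-count scaling and of 0.053 and 0.054 on the FPKM scales (pseudocounts 1 and 0.1). CD151, no member, changed sign likewise, at 0.020, 0.052 and 0.053. A change of sign in a gene called in neither fit was counted as the same call. Of such members ITGA10 ran from -0.10 to 0.05, ITGAL from -0.26 to 0.18, ITGB2 from -0.20 to 0.03 and LAMA2 from -0.01 to 0.33.

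The count of members called lower, 11, was 4 with total-count scaling and 2 with either FPKM scale, and for integrins, 9, it was 3 and 2. Laminins called lower, 2, were 1 with total-count scaling, 1 with DESeq2, 0 with either FPKM scale in limma (0 at an unadjusted p under 0.05) and 1 to 3 with a library left out. Activators and adapters, 10 higher and 6 lower, were 16 and 3 with total-count scaling and 17 and 1 with either FPKM scale. The share of higher calls over all genes moved likewise, to 69.5% with total-count scaling and 77.3% and 77.2% on the FPKM scales. Adhesion kinases called lower, 2, were 1 with total-count scaling, no filter, DESeq2 or either FPKM scale, 4 with the length offset with or without the replicate block, and 1 to 2 with a library left out. Hemidesmosome genes called lower, 1, were 2 with upper-quartile scaling and edgeR's legacy test, 0 with total-count scaling (0 unadjusted), no filter (2 unadjusted) and either FPKM scale (0 unadjusted), and 0 to 2 with a library left out. Basement membrane genes called lower, 1, were 0 with total-count scaling (1 unadjusted) and either FPKM scale (0 unadjusted). Ligands called lower, 1, were 2 with the length offset with or without the block and 1 to 2 with a library left out.

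Same-numbered libraries correlated at 0.0677, 0.0368 and 0.146 in their deviations from the group means. Each knockdown library correlated most with its same-numbered control, though control replicate 2 correlated more with knockdown replicate 1, at 0.0457. The values were low and the numbers are not stated to mark a pairing, so the main fit took none. A replicate block was run as an alternative. With the replicate block 10 members were higher and 10 lower, without ITGB5 (adjusted p = 0.0618 by edgeR quasi-likelihood). Depth limited the genes under about 1 CPM, of which 5 were not tested.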
